A study of Rattus norvegicus with 6 samples.

Results

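The 10 chondrocyte identity genes described here are the transcription factors *Sox9*, *Sox5* and *Sox6* and the cartilage matrix genes *Col2a1*, *Acan*, *Hapln1*, *Comp*, *Matn2*, *Matn3* and *Chad*. They were chosen by name, and all 10 were found among the 18420 genes of the deposited table. RNA-seq was performed on primary articular chondrocytes of wild-type Sprague-Dawley rats, with 3 libraries in each of 2 groups. In the TNF-α group, the cells received 10 ng/mL TNF-α, an inflammatory cytokine used as a culture model of osteoarthritis, for 6 h. In the TNF-α+NFL group, they received the same TNF-α for 6 h and then NFL for 24 h, NFL being the freeze–thaw lysate of Nanofat, a cell suspension made from rat fat. All cells of both groups had therefore met TNF-α, and the labels give 6 h for one group and 30 h for the other, so that NFL and the later harvest cannot be told apart. The saline-treated NC group was not analysed here. The cells were grown in culture to the third passage, and the groups were split from cells of one passage. The study calls the libraries of a group independent biological replicates, but the animals or cultures behind each are not named in the labels, so the p-values measure the spread between these libraries, part of which may be technical.

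Chondrocytes are the cells of cartilage. Sox9 is the transcription factor that sets and maintains their identity, and Sox5 and Sox6 bind DNA beside it and strengthen its action on cartilage enhancers. Their targets build a matrix in which type II collagen fibrils (*Col2a1*) hold aggregates of the proteoglycan aggrecan (*Acan*), fixed to hyaluronan by link protein (*Hapln1*), while Comp, the matrilins (*Matn2*, *Matn3*) and chondroadherin (*Chad*) connect fibrils, proteoglycans and cells. Articular chondrocytes grown in a monolayer are known to lose part of this programme and to gain fibroblast type matrix, and inflammatory cytokines are known to lower it further.

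The 6 libraries held 19344893 to 19725135 estimated counts. Pearson's correlation across genes was 0.986 to 0.989 between TNF-α libraries and 0.991 to 0.992 between TNF-α+NFL libraries. Between libraries of different groups it was 0.988 to 0.990, so the TNF-α libraries were no closer to each other than to the other group. TNF-α replicate 1 stood apart, with 4.46% of its counts on *Fn1* against 3.41% to 3.59% in the others, and results are therefore also given without it. Every direction follows the deposited group labels. A list of changed genes supplied with the study orders these groups the other way round, so the direction of every difference rests on the labels.

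Promoter sequences are shown first, because cartilage matrix genes among the 10 are known targets of SOX factors. Of the 10 genes, 6 were matched in the RefSeq promoter table of build GRCr8, and *Sox9*, *Sox5*, *Col2a1* and *Matn2* were not. The 250 bases before the start of each matched gene were searched, and enhancers were not. The SOX-type cores ACAAAG and ACAATG were sought on both strands, and TATAAA on the strand of the gene. A SOX-type core was found in 2 of the 6 (*Sox6*, *Hapln1*), against 25.3% of all 33469 promoters, and TATAAA in 1 of the 6 (*Chad*), against 8.06%. The 3 promoters with a match are printed below from 5′ to 3′ on the strand of the gene, with the matched letters in capitals. *Sox6* lies at chr1:179665372-179665621 (minus strand, 42.8% GC) and has 3 cores, which begin 79, 69 and 13 bases before the start. *Hapln1* lies at chr2:22366717-22366966 (plus strand, 54.0% GC) and has 1 core, 125 bases before the start. *Chad* lies at chr10:80008795-80009044 (plus strand, 58.4% GC) and has TATAAA 29 bases before the start. A match is a run of letters only, and binding was not measured.
Sox6: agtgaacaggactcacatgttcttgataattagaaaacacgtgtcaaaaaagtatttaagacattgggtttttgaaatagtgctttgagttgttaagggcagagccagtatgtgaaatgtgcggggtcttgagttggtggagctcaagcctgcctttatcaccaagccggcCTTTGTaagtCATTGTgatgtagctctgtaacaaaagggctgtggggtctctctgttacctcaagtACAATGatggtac
Hapln1: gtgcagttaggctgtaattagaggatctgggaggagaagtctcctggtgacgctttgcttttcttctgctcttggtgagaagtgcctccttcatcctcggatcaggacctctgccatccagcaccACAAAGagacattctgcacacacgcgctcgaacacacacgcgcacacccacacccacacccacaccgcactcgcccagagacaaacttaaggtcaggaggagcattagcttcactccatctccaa
Chad: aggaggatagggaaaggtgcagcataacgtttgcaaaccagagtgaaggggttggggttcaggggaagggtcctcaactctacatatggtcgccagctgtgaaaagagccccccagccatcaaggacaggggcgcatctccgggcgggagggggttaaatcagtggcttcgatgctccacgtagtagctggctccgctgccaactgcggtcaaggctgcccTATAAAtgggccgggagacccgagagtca

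All 10 identity genes were detected, at low levels. On the TPM scale (the deposited unit that is scaled to transcript length and so allows levels of different genes to be compared), the mean over the 6 libraries ran from 9.44 for *Sox6* to 0.413 for *Chad*. Between them came *Comp* at 8.64, *Col2a1* at 8.47, *Hapln1* at 7.31, *Sox5* at 7.22, *Acan* at 5.33, *Sox9* at 4.54, *Matn2* at 2.74 and *Matn3* at 1.203 TPM. The library values of *Sox6*, *Comp*, *Col2a1*, *Hapln1* and *Sox5* overlapped from each to the next, as did those of *Acan* and *Sox9*. The lowest *Sox5* library was above the highest *Acan* library, and likewise *Sox9* was above *Matn2*, *Matn2* above *Matn3* and *Matn3* above *Chad*. FPKM values gave the same order. Each gene was above only a minority of the tested genes in TPM, from 2.12% of them for *Chad* through 22.5% for *Sox9* and 33.3% for *Col2a1* to 35.3% for *Sox6*. The summed TPM of the 10 genes was 59.1, 52.8 and 51.0 in the TNF-α libraries and 52.4, 56.8 and 59.7 in the TNF-α+NFL libraries. The groups overlapped in this sum, and its highest TNF-α value was that of replicate 1.

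**Figure D1:**
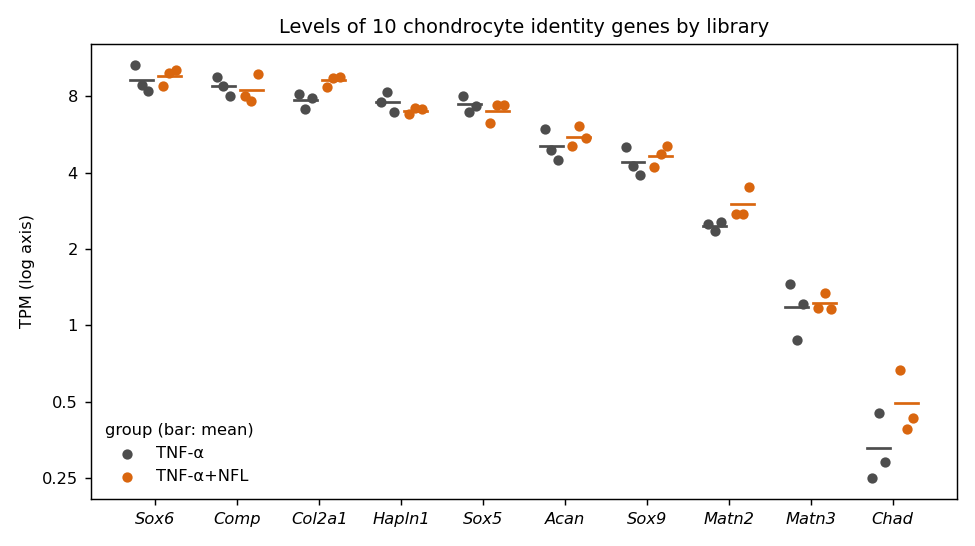
TPM (log axis) of the 10 identity genes in each of the 3 TNF-α and 3 TNF-α+NFL libraries, ordered by mean level, with a bar at each group's mean. The genes run from *Sox6* (8.36 to 10.65 TPM) to *Chad* (0.25 to 0.67 TPM), and the 2 groups are separate only in *Col2a1* and *Matn2*.

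None of the 10 genes differed between the groups at an adjusted p under 0.05. A quasi-likelihood test in edgeR was run on the estimated counts, with p-values adjusted by the Benjamini-Hochberg method over the 13250 genes past its filter on low counts, which all 10 genes passed. The test called 0 of the 10, against 0.611% of all genes tested (54 higher and 27 lower in TNF-α+NFL). At an unadjusted p under 0.05 it gave 1 of the 10 (*Col2a1*), against 11.1% of all genes, and the DESeq2 Wald test also gave 1 at that level, among 786 of the 13250 genes. The median log2 fold change of the 10 genes, TNF-α+NFL minus TNF-α, was 0.059, with 7 above 0 and 3 below, against a median of -0.0035 over all genes tested, of which 48.2% were above 0. The CPM values (library-size scaled counts) of the 2 groups did not overlap in 2 of the 10 genes (*Col2a1*, *Matn2*), against 16.8% of all genes. In 9 of the 10 the 95% interval of the log2 fold change held 0, and in the same number, all but *Chad*, it lay within 0.6 of 0. In a bulk sample, fewer cells of a type and less RNA per cell cannot be told apart.

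**Figure D2:**
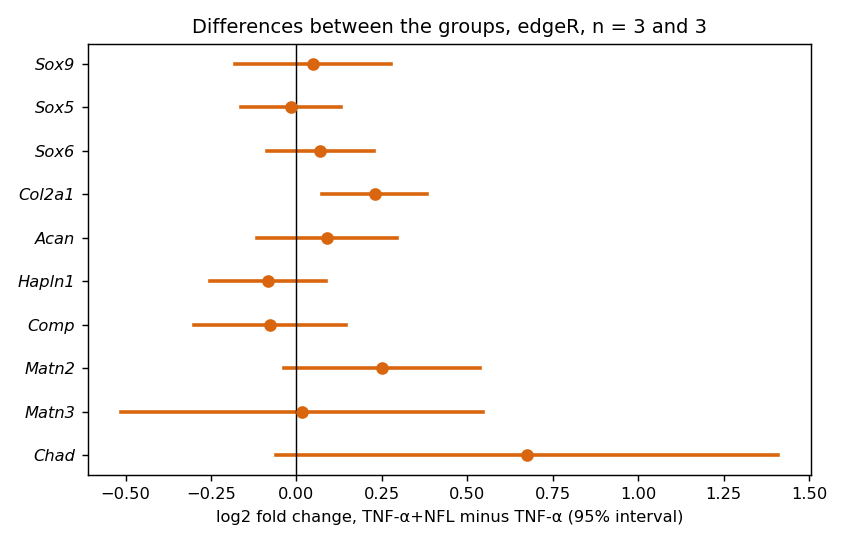
Log2 fold change (TNF-α+NFL minus TNF-α, x axis) of each identity gene with its 95% interval, from edgeR's quasi-likelihood fit on 3 and 3 libraries. Only the interval of *Col2a1*, 0.075 to 0.38, lies wholly on one side of 0, and the interval of *Chad*, -0.059 to 1.41, is the widest.

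The transcription factors did not separate the groups. *Sox9* (Entrez gene 140586) was at 5.06, 4.26 and 3.93 TPM in the TNF-α libraries and at 4.19, 4.73 and 5.07 TPM in the TNF-α+NFL libraries, so each group held high and low values and the ranges overlapped almost wholly. Its CPM was 9.20 ± 1.01 (SD, n = 3) in TNF-α and 9.51 ± 0.905 (SD, n = 3) in TNF-α+NFL. The log2 fold change was 0.049 (SE 0.105, 95% interval -0.18 to 0.28, adjusted p = 0.92, edgeR). As a fold this interval is 0.883 to 1.21.

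*Sox6* (Entrez gene 293165) was at 10.65, 8.86 and 8.36 TPM in TNF-α and at 8.76, 9.85 and 10.19 TPM in TNF-α+NFL. In TPM it had the same arrangement as *Sox9*, with TNF-α replicate 1 high and the other 2 TNF-α libraries among the low ones. The transcript length implied by its counts and FPKM was 4.82 kb in TNF-α replicate 1 and 5.14 to 5.24 kb in the others. In estimated counts TNF-α replicate 1 was at 490, below TNF-α+NFL replicates 2 and 3 at 501 and 524. The log2 fold change of *Sox6* was 0.070 (SE 0.072, 95% interval -0.087 to 0.23, adjusted p = 0.80, edgeR). *Sox5* (Entrez gene 140587) was at 8.02, 6.92 and 7.33 TPM in TNF-α and at 6.25, 7.38 and 7.40 TPM in TNF-α+NFL, with a log2 fold change of -0.016 (SE 0.067, 95% interval -0.16 to 0.13, adjusted p = 0.97, edgeR). On both scales the groups overlapped. The estimated counts of *Sox5* were fractional in all 6 libraries, and the source of this was not tested. The transcript length implied by its counts and FPKM ran from 5.25 to 6.33 kb. TNF-α replicate 1, with the shortest implied length, had the highest *Sox5* TPM but the second lowest count, 402.16, of a range of 389.58 to 452.64. In the GRCr8 annotation *Sox5* overlaps 6 annotated genes, none of which is in the deposited table, and strand-specific counting is not stated.

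*Col2a1* (Entrez gene 25412), the fibril collagen of cartilage, had the smallest p of the 10 genes. It was at 8.16, 7.10 and 7.89 TPM in TNF-α and at 8.68, 9.46 and 9.54 TPM in TNF-α+NFL. All 3 TNF-α+NFL libraries were above all 3 TNF-α libraries, and TNF-α replicate 2 was the lowest. Its CPM was 19.3 ± 1.27 (SD, n = 3) against 22.7 ± 1.39 (SD, n = 3), from estimated counts of 353 to 466, a log2 fold change of 0.23 (SE 0.071, unadjusted p = 0.0067, adjusted p = 0.22, edgeR). This is a fold of 1.17 with a 95% interval of 1.05 to 1.30. The exact permutation test (two-sided) gave p = 0.10, the smallest that 3 against 3 libraries allow. The difference was thus larger than the spread between the libraries of either group but did not pass the adjusted threshold.

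The groups also overlapped in the genes of the aggrecan aggregate. *Acan* (Entrez gene 58968), the core protein that carries chondroitin and keratan sulfate, was at 5.93, 4.92 and 4.47 TPM in TNF-α and at 5.07, 6.12 and 5.46 TPM in TNF-α+NFL. TNF-α replicate 1 was again the highest of its group, and 2 of the 3 TNF-α+NFL libraries were below it. The log2 fold change of *Acan* was 0.090 (SE 0.094, 95% interval -0.12 to 0.29, adjusted p = 0.80, edgeR). *Hapln1* (Entrez gene 29331) was at 7.57, 8.28 and 6.92 TPM in TNF-α and at 6.80, 7.16 and 7.12 TPM in TNF-α+NFL, with a log2 fold change of -0.084 (SE 0.079, 95% interval -0.25 to 0.085, adjusted p = 0.77, edgeR). Its TNF-α+NFL libraries lay closer together than its TNF-α libraries, and the lowest TNF-α library lay among them.

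Among the adaptor proteins, *Comp* (Entrez gene 25304), a thrombospondin family member that binds collagen fibrils, was at 9.51, 8.79 and 8.04 TPM in TNF-α and at 8.03, 7.64 and 9.81 TPM in TNF-α+NFL. Its highest and lowest libraries were both of TNF-α+NFL, and the log2 fold change was -0.077 (SE 0.103, 95% interval -0.30 to 0.15, adjusted p = 0.85, edgeR). *Matn2* (Entrez gene 299996), a matrilin that is also found outside cartilage, was at 2.51, 2.35 and 2.56 TPM in TNF-α and at 2.74, 2.76 and 3.51 TPM in TNF-α+NFL. The groups did not overlap, but 2 of the 3 TNF-α+NFL libraries were close to the TNF-α libraries and replicate 3 was well above them. *Matn2* CPM was 4.52 ± 0.258 (SD, n = 3) against 5.38 ± 0.722 (SD, n = 3), a log2 fold change of 0.25 (SE 0.133, 95% interval -0.035 to 0.54, adjusted p = 0.53, edgeR), and the exact permutation test gave p = 0.10.

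*Matn3* (Entrez gene 313954), a matrilin of growing and articular cartilage, was at 1.46, 0.88 and 1.21 TPM in TNF-α and at 1.17, 1.34 and 1.16 TPM in TNF-α+NFL, from 18 to 28 estimated counts. The TNF-α libraries held both its highest and its lowest value, and the log2 fold change was 0.016 (SE 0.246, 95% interval -0.51 to 0.55, adjusted p = 0.99, edgeR). *Chad* (Entrez gene 29195), a leucine-rich protein that binds collagen and integrin, was the lowest of the 10, at 0.25, 0.45 and 0.29 TPM in TNF-α and at 0.67, 0.39 and 0.43 TPM in TNF-α+NFL. Its estimated counts were 7.19, 12 and 9.3 against 18.97, 15.24 and 11.01, and the groups overlapped on both scales. The log2 fold change of 0.68 (SE 0.34, 95% interval -0.059 to 1.41, adjusted p = 0.51, edgeR) was the largest of the 10 genes and the least precise, and counting error alone gives a coefficient of variation of 28.5% at this depth. The counts of *Chad* were fractional in 5 of the 6 libraries. It overlaps *Acsf2* in the GRCr8 annotation, a gene at 10.5 to 13.7 TPM whose counts were fractional in all 6 libraries, so the value of *Chad* is uncertain.

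Leaving out TNF-α replicate 1 raised the share of all genes called from 0.611% to 6.94%, and the share at an unadjusted p under 0.05 from 11.1% to 20.3%. Even so, 0 of the 10 identity genes were called in that fit. *Col2a1* came closest, at an adjusted p of 0.051 in edgeR, and *Acan*, at a log2 fold change of 0.19 and an adjusted p of 0.21, was the other gene with an unadjusted p under 0.05, which made 2 of the 10. The median log2 fold change of the 10 genes was 0.15 in this fit, and with each of the other libraries left out it lay between 0.023 (TNF-α replicate 3 left out) and 0.13 (TNF-α+NFL replicate 1 left out). Over the 6 fits that each left out 1 library, the log2 fold change of *Col2a1* ran from 0.18 to 0.28 with adjusted p from 0.051 to 0.60, and that of *Matn2* from 0.14, without TNF-α+NFL replicate 3, to 0.31. That of *Sox6* lay between 0.024 (TNF-α+NFL replicate 3 left out) and 0.13 (TNF-α+NFL replicate 1 left out), and *Hapln1* was between -0.11 and -0.039, the latter when TNF-α replicate 2 was left out. The log2 fold change of *Acan* ran from 0.016, without TNF-α replicate 3, to 0.19, and *Comp* was at -0.20 when TNF-α+NFL replicate 3 was left out and at -0.0048 when replicate 2 of that group was. The signs of *Sox9*, *Sox5* and *Matn3* changed in 2 fits each.

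**Figure D3:**
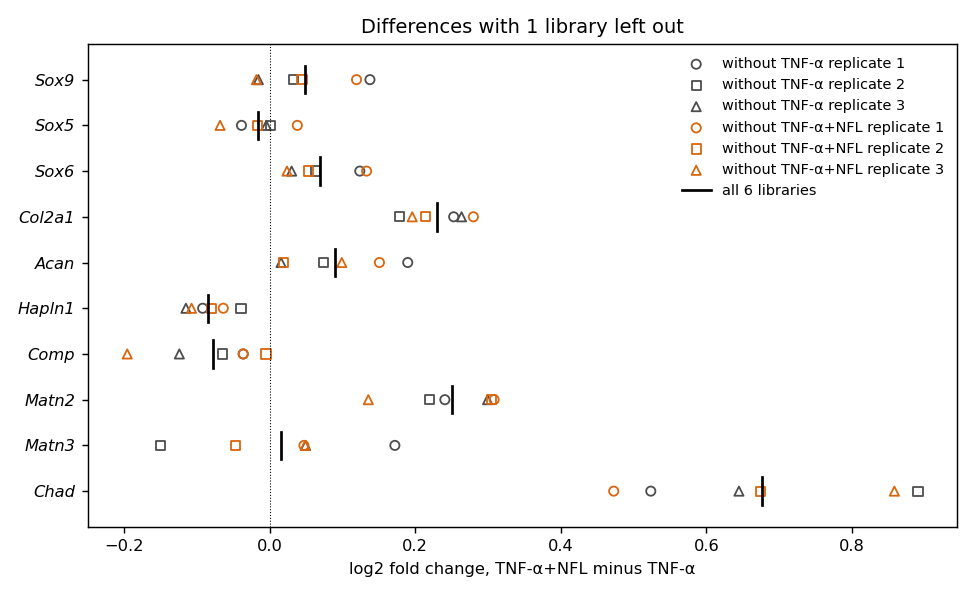
Log2 fold change (TNF-α+NFL minus TNF-α, x axis) of each identity gene with all 6 libraries (bar) and with 1 library left out (symbols, grey for a TNF-α and orange for a TNF-α+NFL library). *Col2a1* stays between 0.18 and 0.28, while *Sox9*, *Sox5* and *Matn3* fall on both sides of 0.

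The cartilage genes were set against fibroblast type matrix genes within each library. *Col1a1*, the fibril collagen of fibroblasts and bone, was on average 150-fold higher in TPM than *Col2a1* (138-fold to 172-fold over the 6 libraries). *Col2a1* was 0.582%, 0.632% and 0.689% of *Col1a1* in the TNF-α libraries and 0.687%, 0.703% and 0.726% in the TNF-α+NFL libraries. The highest TNF-α library just overlapped the lowest TNF-α+NFL library, and the exact permutation test of the log2 ratio (two-sided) gave p = 0.20 for a difference of 0.16. This difference was lowest, at 0.096, when TNF-α replicate 1 was left out and highest, at 0.22, when replicate 3 of that group was. *Vcan*, the large proteoglycan of fibroblasts and immature cartilage, was on average 25.6-fold higher in TPM than *Acan*. *Acan* was 3.87%, 3.61% and 3.56% of *Vcan* in TNF-α and 3.86%, 4.42% and 4.22% in TNF-α+NFL, where again a single TNF-α library, replicate 1, reached into the other group (difference 0.18, exact permutation p = 0.20, and 0.13 to 0.23 with 1 library left out). Both p-values were 0.20 after adjustment over the 2 ratios.

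Other genes of the cartilage programme were taken from lists. Of 23 further cartilage matrix genes, all were in the table and 17 were tested, of which 0 passed the adjusted threshold in edgeR's test. With 0.611% of all genes called, a count of 0 in a list of this size, here and in the next lists, sets it apart from other genes in no way. Their log2 fold changes were above 0 in 14 and below 0 in 3, with a median of 0.15. In this list *Prg4* (lubricin, the lubricant of the joint surface), *Fmod* and *Prelp* (small leucine-rich proteoglycans) had the highest levels, at means of 1100, 995 and 637 TPM, with log2 fold changes of -0.14, 0.023 and -0.0065. In contrast, *Matn1* was at 1 count in 1 library and at 0 in the others, and 9 of the 23 genes had a mean under 1 TPM. The partner of type II collagen in cartilage fibrils, *Col11a1*, was at 449, 404 and 406 TPM in TNF-α and at 490, 533 and 478 TPM in TNF-α+NFL, with all TNF-α+NFL libraries higher (log2 fold change 0.22, adjusted p = 0.052, edgeR). *Cilp*, a protein of the middle zone of cartilage, had a log2 fold change of 0.24 (adjusted p = 0.064, edgeR). *Matn1*, *Col11a1* and *Cilp* were singled out after their values were seen. Without TNF-α replicate 1, *Col11a1*, *Cilp* and *Fmod* were called higher, 3 of 19 genes of this list tested, against 6.94% of all genes in that fit.

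Of 23 other SOX genes and factors that work with Sox9 or regulate cartilage, 22 were in the table and 18 were tested. None passed the adjusted threshold in edgeR's test, with 12 above 0, 6 below and a median log2 fold change of 0.041. The highest were *Sox4* (a SOX factor of progenitor cells, mean 160 TPM, log2 fold change 0.12), *Creb3l2* (a secretory pathway factor, 80.2 TPM, -0.032) and *Runx1* (57.6 TPM, 0.082), all at higher TPM than *Sox9*, *Sox5* or *Sox6*. Without TNF-α replicate 1, *Arid5b*, *Sox4* and *Crebbp* were called higher, 3 of 19 tested against 6.94% of all genes in that fit, and the median of the list was 0.091. Of 20 genes that build and sulfate the glycan chains of aggrecan, all were tested and none passed, with 6 above 0, 14 below and a median of -0.026. *Ugdh*, which makes the sugar precursor, *Chpf* and *Csgalnact1*, which start and extend chondroitin chains, were the highest at means of 275, 186 and 124 TPM. Without TNF-α replicate 1 the median of this list was 0.0054, on the other side of 0, and 1 of the 20 genes (*Csgalnact1*) was called higher, a share near the 6.94% of all genes.

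The fibroblast type list was far higher in level. All 10 of its genes were tested, 2 were called higher in TNF-α+NFL and none lower, against 0.611% of all genes called. The median log2 fold change of the list was 0.081, and 0.16 without TNF-α replicate 1. *Tnc* (tenascin C, a matrix protein of tendon, wounds and the cell's surroundings in culture) was at 568, 518 and 491 TPM in TNF-α and at 704, 712 and 717 TPM in TNF-α+NFL, with no overlap. It rose by a log2 fold change of 0.40 (SE 0.041, adjusted p = 0.00091, edgeR) and was called in all 6 fits with a library left out. *Acta2* (smooth muscle actin, a marker of contractile fibroblasts) rose by 0.28 (adjusted p = 0.010, edgeR) and was called in 2 of those 6. The 3 highest genes of the list were *S100a4*, *Acta2* and *Tagln*, at means of 3627, 3306 and 2654 TPM. The list's summed TPM was 14512 to 14990 in TNF-α and 16355 to 16735 in TNF-α+NFL, and its part in the values of the identity genes was not tested. Within it, the mean of *Acta2* was 2945 TPM in TNF-α and 3667 in TNF-α+NFL, and that of *Tagln* 2379 and 2930 (adjusted p = 0.12, edgeR). The matrix genes *Col1a1* and *Vcan* had log2 fold changes of 0.065 and -0.090. Of the 10 genes, 7 were above 0 and 3 below. Without TNF-α replicate 1, 5 of the 10 were called higher (*Postn*, *Acta2*, *Col1a1*, *Tnc*, *Tagln*) and 1 lower (*S100a4*), in a fit that called 6.94% of all genes.

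Of 10 genes for matrix cutting enzymes and their inhibitors, 9 were tested, 8 were below 0 and 1 above, with a median log2 fold change of -0.10. Only *Mmp13*, the collagenase that cleaves type II collagen, was called, 1 of the 9 against 0.611% of all genes. It was at 261, 263 and 229 TPM in TNF-α and at 213, 199 and 211 TPM in TNF-α+NFL, without overlap. The log2 fold change of *Mmp13* was -0.31 (SE 0.050, adjusted p = 0.017, edgeR), and it was called in 1 of the 6 fits with a library left out, with adjusted p of 0.057 without TNF-α replicate 1. *Mmp3* (stromelysin), *Timp1* (a metalloproteinase inhibitor) and *Htra1* (a serine protease) were the highest of the list, at means of 8029, 1368 and 1330 TPM, and *Timp1* and *Htra1* were called lower without TNF-α replicate 1, 2 of 9 in the fit that called 6.94% of all genes.

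**Figure D4:**
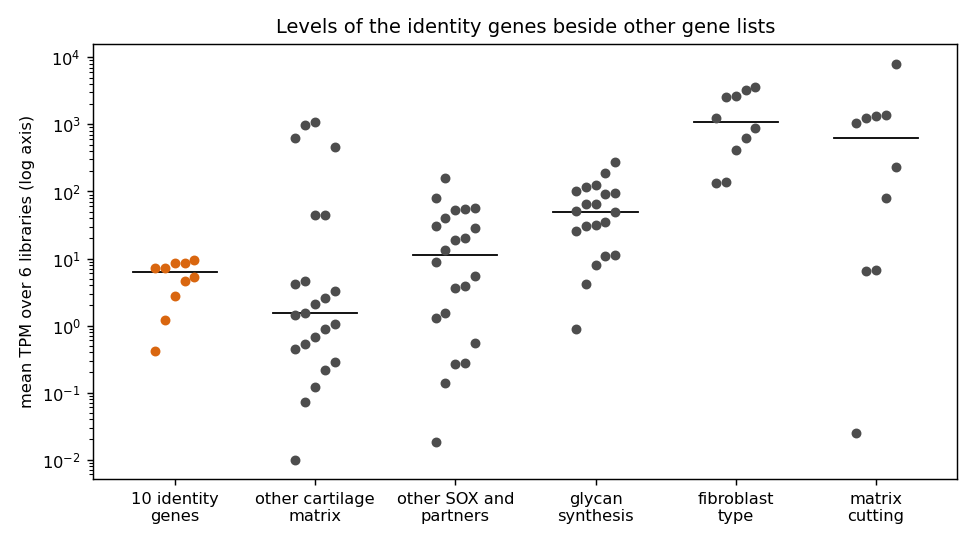
Mean TPM over the 6 libraries (log axis) of each gene of 6 lists, with a line at each list's median. The 10 identity genes have a median of 6.27 TPM, above that of the other cartilage matrix genes (1.56) and below those of the other SOX genes and partners (11.2) and the glycan synthesis (50.2), matrix cutting (638) and fibroblast type (1081) lists, and 1 gene under 0.01 TPM is drawn at 0.01.

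The cell type named in the labels was checked with markers. The 7 chondrocyte markers (*Sox9*, *Col2a1*, *Acan*, *Hapln1*, *Matn3*, *Comp* and *Chad*) were detected in every library at the low levels given above, while the fibroblast markers *Thy1* and *Col1a1* were at 2402 to 2733 and 1123 to 1401 TPM. Of the 4 synovial and fibroblast markers, the podoplanin gene *Pdpn* fell by 0.20 on the log2 scale (adjusted p = 0.030, edgeR) and was called in 1 of the 6 fits with a library left out, while *Thy1*, *Prg4* and *Pdgfra* were not called. This is 1 of 4 against 0.611% of all genes. NFL is made from fat, so markers of cells in fat were also summed. The adipocyte markers summed to 2.96 to 4.13 TPM in TNF-α and 3.44 to 5.09 TPM in TNF-α+NFL, with *Adipoq*, *Plin1*, *Cidec* and *Lep* each at 4 counts or fewer in every library. *Cd68* was at 33.6 to 43.4 TPM, while the other macrophage and leukocyte markers were low, and highest in TNF-α replicate 1. There *Csf1r* was at 1.12 TPM, against 0.03 to 0.18 in the other 5 libraries, *Itgam* at 0.18 against 0 to 0.05, and *Ptprc* at 0.16 against 0 to 0.04. Endothelial markers summed to 0.33 TPM or less in every library and blood markers to 0.32 TPM or less. Of the muscle markers, *Myod1* was at 12.1 to 15.7 TPM (log2 fold change -0.27), *Acta1* at 3.28 to 4.80 TPM (0.30) and *Ckm* at 3 counts or fewer. Of the bone markers only *Alpl* was tested, with a log2 fold change of 0.26 (adjusted p = 0.79, edgeR). Beside *Pdpn* and the fibroblast type genes *Tnc* and *Acta2*, no gene of these marker lists was called, and their part in the values of the identity genes was not tested.

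Finally, the genes most like *Sox9*, *Col2a1* and *Acan* across the 6 libraries were found by the root mean square (RMS) difference of mean-centred log2 CPM. Tested genes with a mean CPM of at least 10 were compared, 9094 for *Col2a1* and for *Acan*. *Sox9*, at group means of 9.20 and 9.51 CPM, was itself under that cutoff. For *Sox9*, whose own RMS deviation was 0.121, the most like were *Fsd1l*, *Klhl12* and *Foxc2*, with RMS differences of 0.032, 0.037 and 0.039. For *Col2a1* (own RMS 0.137) they were *Gprc5c*, *LOC100365363* and *Rasl11b*, at 0.038, 0.043 and 0.045. For *Acan* (own RMS 0.134) they were *Wisp1*, *Ago3* and *Nin*, at 0.0078, 0.025 and 0.028. These distances rest on 6 libraries and are a description only. Counting error alone gives coefficients of variation of 7.39% for *Sox9*, 4.93% for *Col2a1* and 5.20% for *Acan*, and its part in these distances was not tested.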

How the data were processed

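Oligo(dT)-purified mRNA was sequenced as single-end reads of 50 bases. Per the labels, the submitters' processing notes name HISAT2 2.0.4, Bowtie2 2.2.5, RSEM 1.2.12 and build Rnor_6.0. The authors deposited, for each gene and library, an estimated count (not normalized), an FPKM value (scaled to transcript length and mapped reads) and a TPM value (scaled to transcript length and a fixed sum). Levels are deposited TPM. FPKM was used for the order of levels and implied transcript lengths only.

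After rounding, the estimated counts went through filterByExpr, TMM scaling and a robust quasi-likelihood test (edgeR 4.0.16, R 4.3.3). P-values were two-sided and adjusted by the Benjamini-Hochberg method over 13250 genes, with a threshold of 0.05. The F statistic gave the standard error of each fold change. Intervals and CPM use TMM-scaled library sizes. Single values had an exact permutation test. Alternatives used DESeq2 1.42.0 and limma 3.58.1, other filters, scalings, thresholds and left-out libraries, and the DESeq2 fit without independent filtering was added after the data had been seen. No libraries were duplicates: within groups, the chi-square of counts over its degrees of freedom was 2.70 to 13.7.

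The 10 genes and the comparison lists were chosen with earlier results of these data known. Named genes are the 10, the called genes and the 3 highest by mean TPM of each list, and the 3 genes most like *Sox9*, *Col2a1* and *Acan*. Genes of the 2 ratios and the cell type markers were fixed by name. *Ptprc* and other markers outside the 3 highest, and the genes given for library composition or overlap (*Fn1*, *Acsf2*), *Matn1*, *Col11a1* and *Cilp*, were picked out after their values were seen. Genes called without TNF-α replicate 1 are named for completeness. Promoters came from RefSeq (GRCr8), a build other than the authors', and 17068 of 18420 Entrez identifiers matched its gene table. Counting intervals cover counting error only.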

Additional observations from a re-analysis of the deposited data

How the results depend on the processing

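None of the 10 identity genes was called at an adjusted p under 0.05 in any fit that gave one: the smallest was 0.19 (*Col2a1*, no filter on low counts) among those with all libraries and 0.051 (*Col2a1*, without TNF-α replicate 1) among the 6 with a library left out. The DESeq2 Wald test with independent filtering gave no adjusted p for the 10, and without that filtering the smallest was 0.67. At an unadjusted p under 0.05, 1 of the 10 passed in edgeR. At least 10 counts in every library removed *Chad*, and limma on log2(TPM + 1) gave *Chad* 0.17. Left-out fits gave log2 fold changes of -0.018 to 0.14 for *Sox9*, -0.068 to 0.038 for *Sox5* and -0.15 to 0.17 for *Matn3*, crossing 0, and the other 7 kept their sign.

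Numbers of genes called depended on the setting, and the cause was not tested. Against 54 higher, 27 lower and 4 in the lists, they were 84, 48 and 7 with no filter, 95, 53 and 8 by the DESeq2 Wald test (46 lower and 8 in the lists without independent filtering), 24, 8 and 2 by limma on log2(TPM + 1) and also on log2(TPM + 0.1), and 151, 85 and 9 with the length trend removed. They were 16, 7 and 1 at an adjusted p under 0.01, 100, 64 and 7 under 0.10, and 750, 722 and 20 at an unadjusted p under 0.05. Leaving out 1 library gave 5 to 460 higher, 0 to 470 lower and 1 to 16 in the lists, the highest without TNF-α replicate 1 and the lowest higher and lower counts without TNF-α+NFL replicate 1. With 0 lower there by edgeR, 1035 genes in either direction had an unadjusted p under 0.05.

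A replicate block on the number in the titles gave 25 genes higher, 9 lower and 2 in the lists, and none of the 10 genes was called (*Col2a1* adjusted p = 0.28). The labels do not say whether the numbers pair the libraries. Same-numbered libraries' deviations correlated at 0.030, -0.024 and 0.10 over the genes tested. Differently numbered libraries were not compared and many genes have low counts, so these values cannot settle whether the libraries are paired. Depth limits *Chad* and *Matn3* most, at 7.19 to 28 estimated counts a library.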
